A study of Mus musculus with 26 samples.

Results

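A set of 5 lines of mouse gastruloids were sequenced at 120h under one library name, ISML_second, and their tissue makeup is compared here with that of the other libraries of the same stage. A gastruloid starts as a ball of mouse embryonic stem cells, lengthens in the dish and lays down trunk and tail tissues. Libraries were chosen by label alone: of 26 libraries in the series, 18 are of 120h after aggregation, and 5 of these carry the name ISML_second. All 18 libraries, polyadenylated RNA of whole gastruloids, carry HoxB Del/Del(i9-13) on the HoxB cluster, a row of genes that pattern the body axis. The 5 libraries are Del replicate 3 (no further edit), Ins replicate 3 (with Ins(CBS5-10)), InvClone1 replicate 4 (clone 1 of Ins(CBS5-10):Inv(CBS5-10)), InsDel8to10 replicate 1 (Ins(CBS5-10):Del(CBS8-10)) and InvDel7to10 replicate 1 (the inversion with Del(CBS7-10) added). The other 13 libraries fall under 3 names. ISML_first covers Del replicates 1 and 2 and Ins replicates 1 and 2. ISML_third covers 7 libraries: InsDel5to10 (Ins(CBS5-10):Del(CBS5-10)), InsDel7to10 (Ins(CBS5-10):Del(CBS7-10)) and InvClone2 (clone 2 of the inversion) with 2 each, and InvClone1 replicate 1. TruSeq_second covers InvClone1 replicates 2 and 3, and the labels' protocol gives the TruSeq Stranded mRNA kit for 2 replicates of this line at 120h, with most other libraries made with an ISML kit.

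Beyond the kit, the labels do not say what a library name stands for, whether a shared name means a shared culture, or whether replicates are separate cultures. P-values therefore measure the spread between these libraries, which may be technical. Del, Ins and InvClone1 have libraries under ISML_second and under another name, so the label could be compared within these 3 lines. InsDel8to10 and InvDel7to10 have their only 120h library under ISML_second, and for them line and label cannot be told apart. InvClone1 and InvClone2 are each 1 clone, and how many clones the other lines stand for is not given in the labels.

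Left to develop, gastruloids form axial tissues in parallel: a tailbud that feeds presomitic mesoderm, somites and neural tube, a gut-like endoderm tube, and endothelial, blood and heart precursors from lateral mesoderm. These tissues signal to each other. Endoderm and the axial midline (notochord and floor plate) release Hedgehog proteins, whose receiving cells switch on genes such as Gli1, Ptch1 and Hhip. Vegfa, a secreted growth factor, calls endothelial cells through the receptors Kdr and Flt1. Bulk RNA mixes all of these cells, so that fewer cells of a type and less RNA per cell cannot be told apart in any value below.

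Total counts ran from 18746411 to 37716547 per library, and from 20788859 to 25411986 in the 5 ISML_second libraries, inside the range of the others. A score for each tissue list, the mean of its members' log2(CPM + 1) relative to their 18-library means, put every ISML_second library above all 13 others for 6 of 28 lists, namely the midline pair Foxa2 and Shh, notochord, floor plate, heart muscle, neural crest and Hedgehog response, CPM being counts scaled to library depth. Scores use every tested member, also genes that passed the filter on low counts only through the 5 libraries, which favours such a separation. Of 4 floor plate genes in the score 3 passed in the 13 others alone, and of 10 heart muscle genes 9. For the midline pair, notochord, neural crest and Hedgehog response all did. Values of the 5 libraries are given below in the order Del, Ins, InvClone1, InsDel8to10 and InvDel7to10. For the 13 others the lowest, median and highest value is given. A value with a standard error (SE) is a log2 fold change, the 5 libraries over the 13 others.

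**Figure D1:**
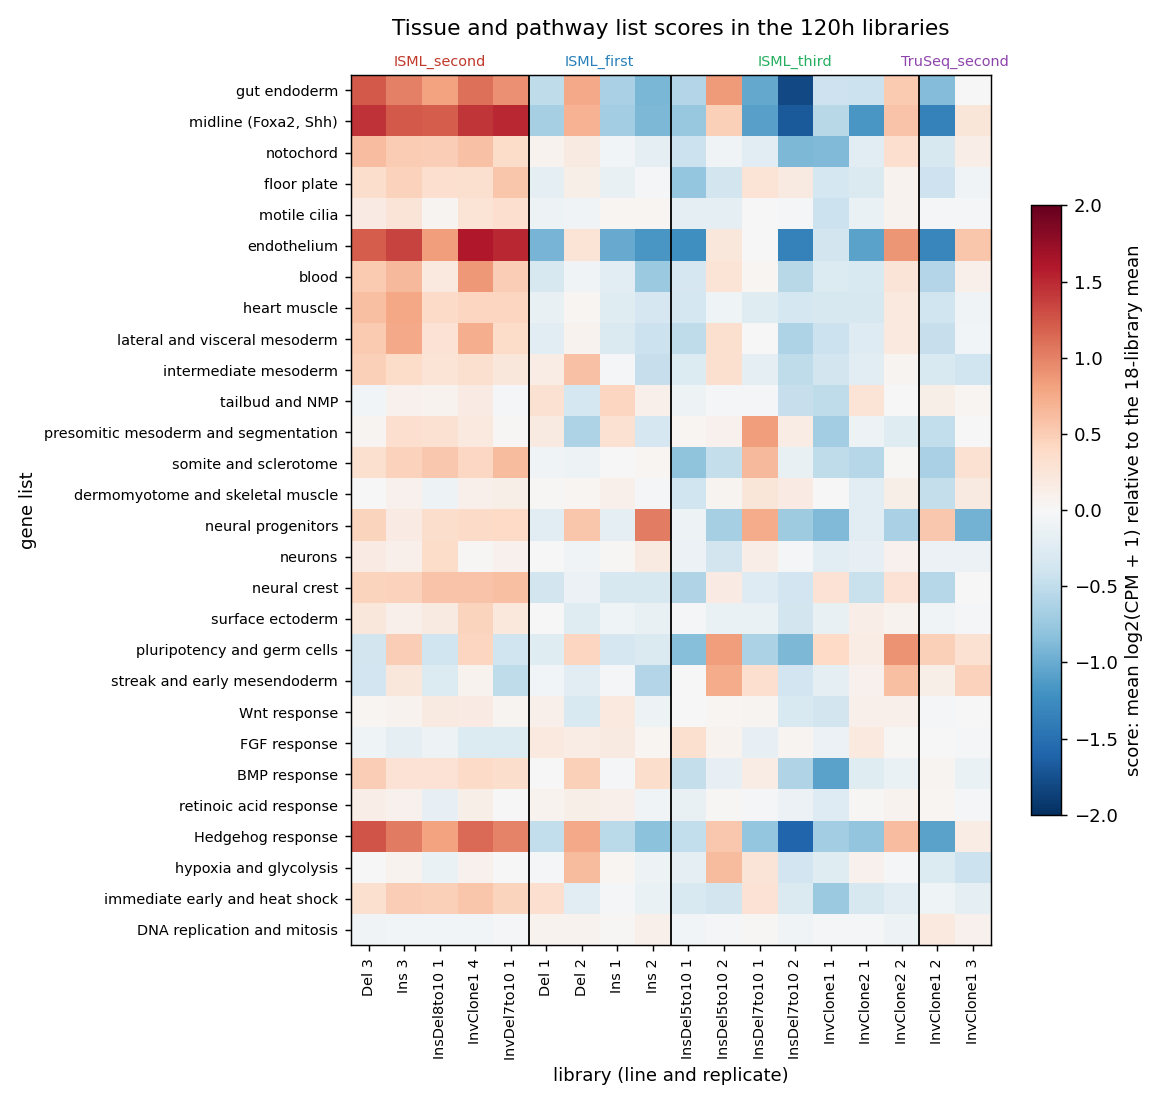
Scores of the 28 tissue and pathway lists (rows) in the 18 libraries of 120h (columns, by library name); red is above and blue below the 18-library mean, in log2 units. The 5 ISML_second libraries, at the left, are red for gut endoderm, the midline pair, endothelium and Hedgehog response, with endothelium scores of 0.84 to 1.60, and lists such as tailbud and Wnt response show no such block.

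Over all 15396 genes tested, 2276 (14.8%) were higher and 1960 (12.7%) lower in the 5 libraries than in the 13 others at an adjusted p under 0.05 (edgeR quasi-likelihood test), and the median log2 fold change was 0.02 (5th to 95th percentile -0.44 to 1.01). With a term for line, 732 (4.75%) were higher and 292 (1.90%) lower. That estimate of the label rests on Del, Ins and InvClone1, the 3 lines with libraries on both sides, and the other lines drop out of it. Between labels within Del and Ins alone, 6 libraries, 1263 of 15378 genes (8.21%) were higher and 1158 (7.53%) lower. The 5 libraries lay wholly above the 13 others for 955 genes (6.20%) and wholly below for 650 (4.22%). Each list below is read against these shares.

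Endothelial genes rose nearly throughout. Of 20 endothelial genes, all tested and all passing the filter on low counts in the 13 other libraries alone, 19 were higher and none lower, with a median log2 fold change of 1.91. In the fit with line 5 of the 20 passed the threshold, at a median of 2.57, and within Del and Ins alone 12 did. All 20 were higher in each of Del, Ins and InvClone1, which held for 33.7% of all genes, with median differences of 1.55, 2.55 and 1.97 in log2(CPM + 1). Leaving out 1 library at a time gave 15 to 19 higher genes, the lowest count without InvClone1 replicate 4, and 18 were higher without the TruSeq libraries. In a fit with the 4 names apart, 18 of 20 were higher than in ISML_first, where 10.9% of all genes were higher and 9.23% lower. Against ISML_third 14 were higher (all genes 19.0% higher, 16.3% lower). Against the 2 TruSeq libraries 0 were (all genes 6.82% higher, 9.16% lower), at a median log2 fold change of 1.76. These 2 libraries differed, with endothelium scores of -1.30 in InvClone1 replicate 2 and 0.55 in replicate 3. Replicate 2 had counts for 54.8% of genes and replicate 3 for 43.4%, against 37.5% to 40.8% in the other libraries of 120h. The part of these measures in the calls was not tested.

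Cdh5, the cadherin of endothelial junctions, stood at 23.3, 21.96, 29.9, 19.6 and 29.0 CPM, and 0.419, 2.63 and 20.1 CPM in the 13 others, its log2 fold change being 2.04 ± 0.58 (SE, adjusted p = 0.0134). InvClone2 replicate 2, at 20.1 CPM, was the only library of the 13 to reach the lowest ISML_second value. Kdr, the main receptor of Vegfa, averaged 66.0 ± 16.5 CPM (SD, n = 5) against 17.8 ± 17.0 (SD, n = 13), a log2 fold change of 1.89 ± 0.58 (SE, adjusted p = 0.021). The receptor Flt4 was chosen after its values were seen, averaged 36.2 ± 7.59 CPM (SD, n = 5) against 8.91 ± 7.24 (SD, n = 13), and its groups did not overlap. Sox18, a transcription factor of early vessels, gave 11.7, 11.5, 14.9, 7.47 and 18.2 CPM, against 0.0473, 0.644 and 4.94 CPM, 2.86 ± 0.63 (SE, adjusted p = 0.00306). For Tie1, a receptor tyrosine kinase of endothelium, the 5 values were 15.3, 18.2, 25.04, 14.5 and 25.2 CPM and those of the others 0.348, 1.47 and 10.5 CPM, with 2.63 ± 0.57 (SE, adjusted p = 0.00279). Neither gene overlapped between the groups, and neither passed in the fit with line (adjusted p = 0.0676 and 0.0588). Plvap, of the diaphragms of endothelial pores, and Egfl7, a secreted endothelial protein, passed in both fits. Plvap stood at 11.2, 12.4, 17.9, 7.78 and 15.6 CPM, against 0.248, 0.966 and 6.03 CPM, and rose by 2.64 ± 0.52 (SE, adjusted p = 0.00155). Egfl7 stood at 35.8, 36.1, 42.0, 24.5 and 31.3 CPM, against 5.25, 13.4 and 22.4 CPM, 1.30 ± 0.24 (SE, adjusted p = 0.000915). Ramp2, an adrenomedullin co-receptor (1.11 ± 0.20 SE, adjusted p = 0.000786), and Etv2, the factor that starts the endothelial lineage (1.59 ± 0.32 SE, adjusted p = 0.00181), rose as well, and both passed with line as a term. Pecam1, a platelet and endothelial adhesion molecule, was the 1 member short of the threshold and was singled out for that, 0.85 ± 0.46 (SE, adjusted p = 0.178).

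Promoter sequence is shown for 3 of these genes because the list moved together. RefSeq promoter windows (build GRCm38.p6) were at hand for 11 of the 20 genes, in 15 windows. Below are the 250 bases upstream of the start of Egfl7 (the first of its 3 starts in the table), Tie1 and Kdr, 5′ to 3′ on the gene's strand. Capitals mark CAGGAAG or CCGGAAG, or their reverse complements, 7-letter words that hold the GGAA core of ETS factors such as Etv2, Erg and Fli1.
Egfl7, chr2:26580833-26581082, plus strand: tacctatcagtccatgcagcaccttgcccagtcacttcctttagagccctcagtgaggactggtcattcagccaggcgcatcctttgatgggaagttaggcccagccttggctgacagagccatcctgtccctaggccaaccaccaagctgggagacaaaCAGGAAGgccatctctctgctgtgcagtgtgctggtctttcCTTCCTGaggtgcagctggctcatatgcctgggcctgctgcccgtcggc
Tie1, chr4:118489850-118490099, minus strand: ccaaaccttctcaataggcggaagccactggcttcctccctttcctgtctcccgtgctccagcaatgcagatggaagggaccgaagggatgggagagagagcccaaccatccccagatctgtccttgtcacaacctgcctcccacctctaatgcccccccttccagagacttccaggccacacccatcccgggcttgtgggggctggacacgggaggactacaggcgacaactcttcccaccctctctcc
Kdr, chr5:75978456-75978705, minus strand: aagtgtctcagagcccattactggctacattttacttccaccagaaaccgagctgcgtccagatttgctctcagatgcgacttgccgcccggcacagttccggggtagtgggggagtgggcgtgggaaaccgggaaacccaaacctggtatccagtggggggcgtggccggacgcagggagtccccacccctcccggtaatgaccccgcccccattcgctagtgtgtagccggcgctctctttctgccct
Egfl7 holds 2 matches, with first bases 90 and 49 before the start, and Tie1 and Kdr hold 0. At least 1 match stood in 5 of the 15 windows of the list (33.3%) and in 5585 of all 32851 windows (17.0%). A match describes letters in a window, and nothing is drawn from it about any factor.

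Genes known from endothelium also stood among the 15 largest rises without overlap. Stab1, a scavenger receptor of sinusoidal vessels and macrophages, stood at 24.9, 26.2, 32.8, 20.8 and 42.8 CPM, against 0.524, 1.45 and 11.4 CPM. Its log2 fold change was 2.99 ± 0.54 (SE, adjusted p = 0.000797). Mmrn1, a protein of platelets and endothelium, rose by 2.84 ± 0.59 (SE, adjusted p = 0.00213), and Col15a1, a basement membrane collagen, by 3.11 ± 0.39 (SE, adjusted p = 5.81e-05). Col15a1 passed the filter on low counts only through the 5 libraries, which favours a rise, so that its call carries little weight. Vegfa, on chromosome 17 from 46016993 to 46032369 (mm10), is listed with hypoxia genes here and was higher without overlap. It stood at 123, 116, 125, 99.5 and 114 CPM, against 29.0, 46.8 and 74.1 CPM, 1.31 ± 0.17 (SE, adjusted p = 9.06e-05), and it passed with line as a term (1.57, adjusted p = 0.0072). Of the other 10 hypoxia and glycolysis genes tested none passed the threshold, and the list's median was -0.16. Slc2a1, the main glucose transporter, gave 715, 597, 666, 621 and 589 CPM, against 307, 701 and 1200.0 CPM, adjusted p = 0.617.

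A few early blood genes rose, and markers of red cells were at or near 0. Of 16 blood genes 5 could be tested, 4 of them on the 13 other libraries alone, and 3 were higher, or 2 of those 4. Tal1, a transcription factor of blood and vessel precursors, stood at 7.31, 6.61, 6.21, 2.55 and 3.95 CPM, against 0.0473, 1.19 and 3.74 CPM, 1.80 ± 0.54 (SE, adjusted p = 0.0182). Without Del replicate 3 its adjusted p was 0.0537. Lyl1, its relative, which passed the filter only through the 5 libraries, rose by 2.50 ± 0.48 (SE, adjusted p = 0.00129), and Itga2b, an early blood and platelet integrin, by 1.61 ± 0.43 (SE, adjusted p = 0.00979). Runx1, which starts definitive blood, averaged 2.58 ± 0.406 CPM (SD, n = 5) against 2.69 ± 0.744 (SD, n = 13) (adjusted p = 0.867). The embryonic globins Hbb-bh1 and Hbb-y had 0 counts in all 18 libraries, which allows up to 0.0795 to 0.160 CPM (3 counts, counting error only). Gata1, the erythroid master regulator, had 0 counts in the 5 libraries and at most 0.0849 CPM in the others.

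Gut endoderm genes formed a further raised group. Of 21 genes 17 were tested, 14 of them passing the filter in the 13 other libraries alone. Of the 17, 11 were higher and 0 lower, with a median log2 fold change of 1.52, and of the 14, 9 were higher. With line as a term 8 were higher, within Del and Ins 4, and 15 of 17 were higher in each of the 3 lines. Leaving out 1 library gave 8 to 13, the lowest count without InvClone1 replicate 4. In the fit with the 4 names apart, 3 of 17 were higher than in ISML_first and 9 than in ISML_third. Against the TruSeq libraries 1 was higher. Of all genes 10.9%, 19.0% and 6.82% were higher in these 3 contrasts. The list's median log2 fold changes in them were 1.54, 1.52 and 1.80. The filter favoured a rise in the 3 genes that passed it only through the 5 libraries, so that the count over the 14 is the fairer one. Hnf4a, Apoa1, Afp and Pyy were too low to test.

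Epcam, an adhesion molecule of epithelia, stood at 53.1, 41.2, 48.1, 39.2 and 39.4 CPM, against 4.59, 16.2 and 38.5 CPM, 1.35 ± 0.32 (SE, adjusted p = 0.00531), and passed with line as a term (adjusted p = 0.0199). The highest of the 13, InsDel5to10 replicate 2, stayed just under the lowest of the 5. Sox17, a transcription factor of endoderm and also of arterial endothelium, gave 22.9, 21.0, 17.7, 19.2 and 18.1 CPM, against 0.521, 3.17 and 8.45 CPM. Its groups did not overlap, and the log2 fold change was 2.40 ± 0.46 (SE, adjusted p = 0.0013). Foxa1, a pioneer factor of gut endoderm on chromosome 12 from 57540628 to 57546121 (mm10), stood at 29.5, 21.0, 26.9, 20.0 and 26.5 CPM, against 0.142, 2.12 and 14.3 CPM, 2.63 ± 0.51 (SE, adjusted p = 0.00135). Cldn7, a tight junction protein of gut epithelium, averaged 10.2 ± 1.92 CPM (SD, n = 5) against 2.39 ± 2.37 (SD, n = 13), and Cdh1, E-cadherin, 65.7 ± 9.47 CPM (SD, n = 5) against 26.9 ± 20.3 (SD, n = 13). Krt8 and Krt18, the keratins of simple epithelia, rose by 1.53 and 1.62. Trh, a hormone precursor, did not pass the threshold at 49.1 ± 14.2 CPM (SD, n = 5) against 42.3 ± 34.9 (SD, n = 13) (adjusted p = 0.764).

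Among genes of at least 1 CPM on average whose groups did not overlap, several of the largest rises were outside the lists. Nepn, nephrocan, is a secreted protein of midgut and hindgut endoderm. It stood at 136, 74.4, 55.3, 87.4 and 47.7 CPM, against 0.663, 3.59 and 27.2 CPM, and rose by 3.38 ± 0.62 (SE, adjusted p = 0.000956). Del replicate 3 was the highest of the 5. Serpinf2, the plasmin inhibitor made in liver, had the largest rise among these genes. Its 5 values were 5.601, 4.65, 6.06, 3.30 and 5.41 CPM, against 0, 0.116 and 1.20 CPM, 3.84 ± 0.55 (SE, adjusted p = 0.000174). Kif12, a kinesin of epithelia, Atp2c2, a calcium pump of secretory epithelia, and Fgfr4, an FGF receptor of endoderm and muscle, rose by 3.37, 3.33 and 2.88. All 5 of these genes passed with line as a term, at adjusted p-values from 0.0072 to 0.0227. Serpinf2, Kif12, Atp2c2 and Erdr1 passed the filter only through the 5 libraries, which favours a rise, so that their calls carry little weight. Erdr1 rose by 3.49 ± 0.69 (SE, adjusted p = 0.00158), with 0.156 CPM as the median of the 13 and 4.89 CPM as their highest value.

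**Figure D2:**
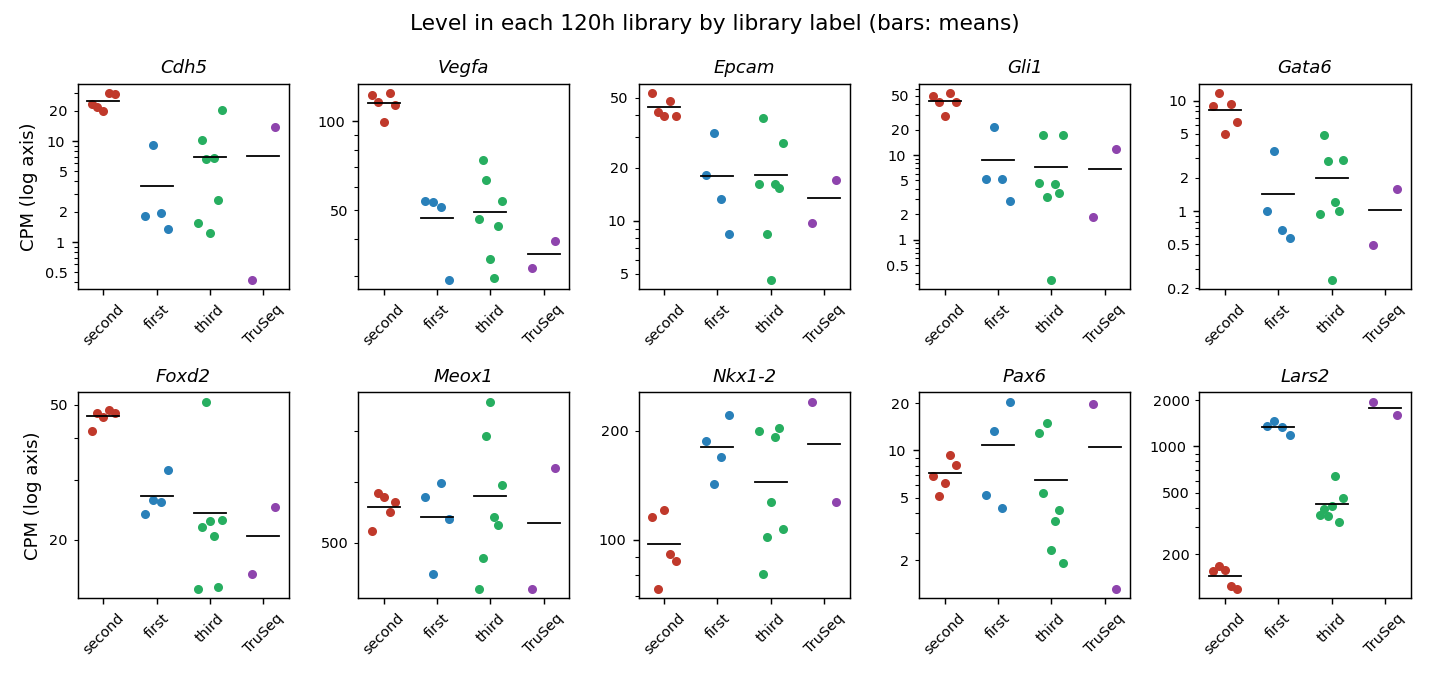
Level of 10 genes in each 120h library (points, CPM on a log axis) by library name, with bars at the mean of each name. Cdh5, Vegfa, Epcam, Gli1, Gata6 and Foxd2 are high in ISML_second, Meox1 and Pax6 overlap across names, Nkx1-2 is low, and Lars2 is at most 169 CPM in ISML_second and at least 322 CPM elsewhere.

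Hedgehog ligands and their response genes also rose. Ihh, Indian hedgehog, the ligand of gut epithelium, stood at 9.90, 5.35, 6.86, 5.93 and 4.99 CPM, against 0, 0.424 and 2.33 CPM, 3.20 ± 0.56 (SE, adjusted p = 0.000679). Shh, the ligand of midline and gut, gave 4.22, 4.70, 5.10, 4.22 and 5.84 CPM, against 0, 0.541 and 2.90 CPM, 2.32 ± 0.55 (SE, adjusted p = 0.00477). Foxa2, the factor shared by endoderm, notochord and floor plate, gave 17.8, 11.7, 14.7, 12.4 and 14.4 CPM, against 0.284, 1.94 and 8.08 CPM, 2.06 ± 0.50 (SE, adjusted p = 0.00586). None of the 3 genes overlapped between the groups, and of the 3 Ihh passed with line as a term (adjusted p = 0.0182). All 4 response genes were higher (median 1.24). Gli1, the transcription factor most directly switched on by the signal, stood at 49.3, 42.8, 54.1, 28.8 and 42.3 CPM, against 0.331, 4.72 and 21.4 CPM, and rose by 2.51 ± 0.51 (SE, adjusted p = 0.00195). It was the 1 of the 4 to pass with line as a term (2.87, adjusted p = 0.0326). Hhip, a decoy receptor, rose by 1.46 ± 0.32 (SE, adjusted p = 0.00279). Ptch1, a receptor, rose by 0.74, and its call was lost in 15 of 18 fits that left out 1 library (adjusted p up to 0.117). Without the TruSeq libraries 3 of the 4 were higher.

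Other parts of the signal's machinery missed the threshold. Smo, the transducer, averaged 272 ± 6.32 CPM (SD, n = 5) against 236 ± 29.4 (SD, n = 13), Gli2 105 ± 9.66 CPM (SD, n = 5) against 94.2 ± 15.3 (SD, n = 13) and Gli3 186 ± 14.1 CPM (SD, n = 5) against 199.6 ± 24.3 (SD, n = 13), with adjusted p = 0.071, 0.313 and 0.402. These 3 genes were chosen after their values were seen.

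Notochord genes rose in part, and floor plate genes gave 1 call. Of 8 notochord genes 6 were tested and 3 were higher: Nog, 1.33 ± 0.29 (SE, adjusted p = 0.00296), and Chrd, 1.38 ± 0.35 (SE, adjusted p = 0.00812), both secreted BMP inhibitors, and Col2a1, a collagen of the notochord sheath and of cartilage, 0.63 ± 0.23 (SE, adjusted p = 0.0445). The call of Col2a1 was lost in 12 of 18 fits that left out 1 library (adjusted p up to 0.101). Noto, which is particular to the node and notochord, was too low to test, at 0.771, 0.651, 0.307, 0.264 and 0 CPM, against 0, 0.0773 and 1.05 CPM. In floor plate 4 of 6 genes were tested, 3 of them on the 13 others alone, and Nkx2-9, a factor of the ventral neural tube, was the only one higher (2.43 ± 0.47 SE, adjusted p = 0.00125). Nkx2-9 passed the filter only through the 5 libraries where it is high, which favours a rise, and of the 3 others 0 were higher. Ntn1, the floor plate guidance protein that somites and other tissues also make, gave 413 ± 38.5 CPM (SD, n = 5) against 366 ± 72.3 (SD, n = 13) (adjusted p = 0.299). Sspo, a secreted protein of the dorsal and ventral midline of the neural tube, rose by 2.73 ± 0.29 (SE, adjusted p = 1.51e-05) among all genes. Of 6 motile cilia genes tested 3 were higher, Foxj1, Dnah11 and Ccdc39, by 1.04, 0.84 and 0.66, and none passed with line as a term. The Foxj1 call was lost in 9 of 18 fits without 1 library and the Ccdc39 call in 3, those without Ins replicate 3, InvDel7to10 replicate 1 or Del replicate 3.

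**Figure D3:**
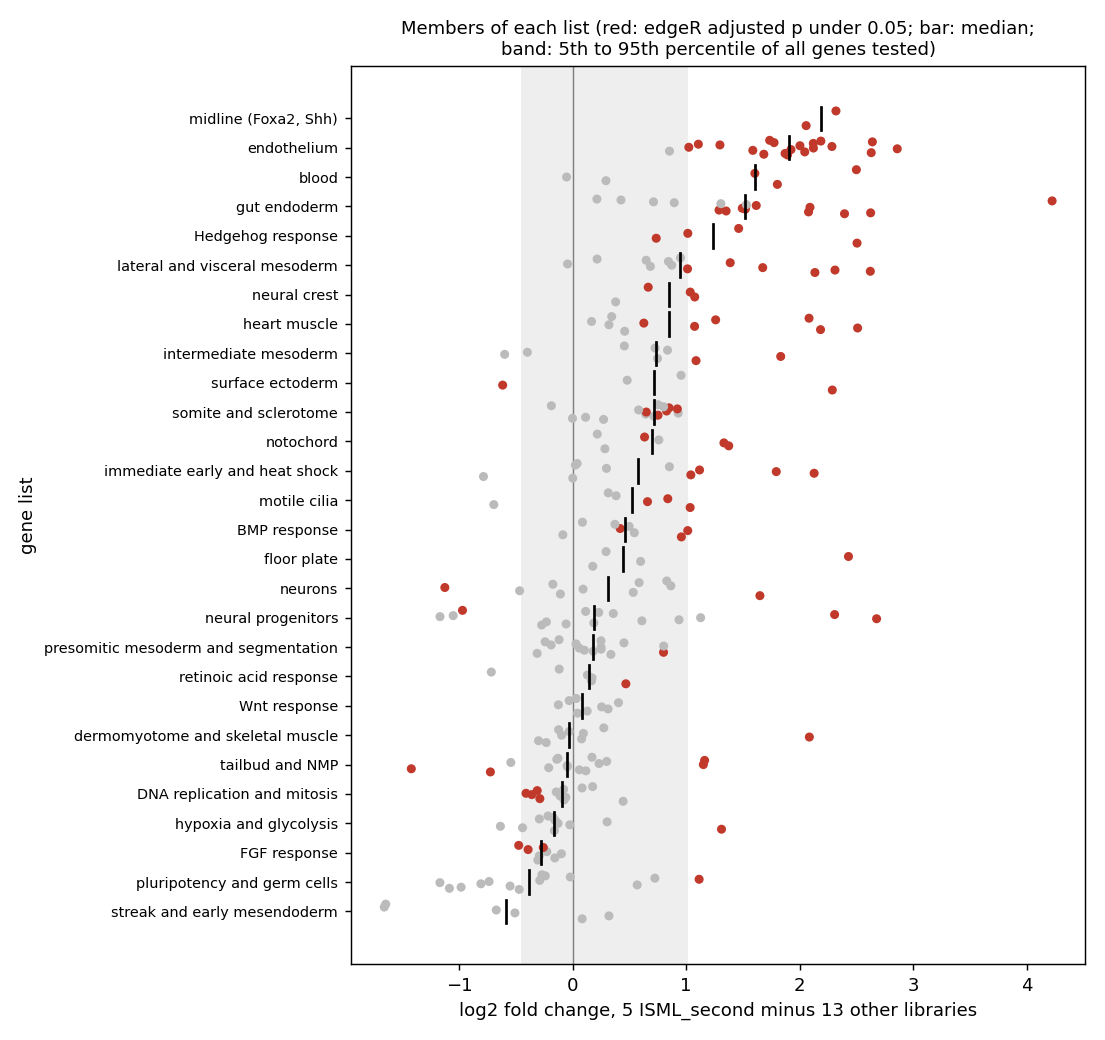
Log2 fold change of every tested member of each list between the 5 ISML_second and the 13 other libraries; red points passed the edgeR threshold, black bars are medians and the grey band spans the 5th to 95th percentile of all genes (-0.44 to 1.01). Medians run from 2.19 for Foxa2 and Shh and 1.91 for endothelium to -0.59 for streak and early mesendoderm, none of whose 6 genes passed.

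Cardiac and lateral mesoderm genes formed a further raised group. Of 15 heart muscle genes 10 were tested, 9 of them on the 13 others alone, and 6 were higher, or 5 of those 9, at a median of 0.85 over the 10. Myh7, a myosin heavy chain of heart and slow muscle, stood at 13.0, 9.59, 10.5, 8.35 and 9.60 CPM, against 0.0947, 1.04 and 5.89 CPM, 2.51 ± 0.50 (SE, adjusted p = 0.00171), without overlap, and passed with line as a term (adjusted p = 0.0225). Myh6, the atrial myosin, which passed the filter only through the 5 libraries, rose by 2.18 ± 0.46 (SE, adjusted p = 0.00236), Myl3, a myosin light chain, by 2.08 ± 0.50 (SE, adjusted p = 0.00528) and Actn2, of sarcomere discs, by 1.07 ± 0.27 (SE, adjusted p = 0.00627). The core cardiac factor Nkx2-5 was too low to test, with 0.279 CPM as its highest value in the 5 libraries, and Tnnt2, cardiac troponin T, gave 0.812, 4.37, 0.959, 0.835 and 2.40 CPM, against 0.0993, 0.671 and 4.07 CPM (adjusted p = 0.599). Of 18 lateral and visceral mesoderm genes 13 were tested, 11 of them on the 13 others alone. Of the 13, 6 were higher in the comparison, 6 with line as a term and 6 within Del and Ins, at a median of 0.95 in the comparison. Of the 11, 5 were higher. Gata6, a factor of endoderm and heart mesoderm, gave 9.01, 11.7, 9.39, 5.01 and 6.40 CPM, against 0.237, 1.00 and 4.92 CPM, 2.31 ± 0.45 (SE, adjusted p = 0.00149). Gata4, its partner in the same tissues, rose by 2.13 ± 0.39 (SE, adjusted p = 0.000832) and Gata5, which passed the filter only through the 5 libraries, by 2.62 ± 0.49 (SE, adjusted p = 0.00102). Foxf2, a target of Hedgehog in the mesoderm around the gut, rose by 1.67 ± 0.30 (SE, adjusted p = 0.000705), and Foxf1 by 1.01 ± 0.28 (SE, adjusted p = 0.0113). Hand2, of the lateral plate, was too low to test, with Ins replicate 3 at 3.40 CPM and the other 4 libraries between 0.220 and 0.805 CPM. Of 8 intermediate mesoderm genes tested 2 were higher, Pax2, 1.09 ± 0.29 (SE, adjusted p = 0.00944), and Osr1, 1.83 ± 0.62 (SE, adjusted p = 0.0335), and Osr1 lost its call without any 1 of the 5 libraries. Osr1 passed the filter only through the 5 libraries, and of the 7 genes passing in the 13 others alone 1 was higher. Pax8, of the same tissue, stayed between 0 and 0.491 CPM in all 18 libraries.

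The tailbud and presomitic programmes gave few calls, in both directions. Of 15 tailbud genes 2 were higher and 2 lower (median -0.05). Sp5, a Wnt target, and Fgf8, the growth factor of the tailbud, rose by 1.16 ± 0.27 (SE, adjusted p = 0.004) and 1.15 ± 0.28 (SE, adjusted p = 0.00601). Cdx4, a factor of posterior identity, fell by 1.42 (SE 0.41, adjusted p = 0.0146), and Nkx1-2, of neuromesodermal progenitors, by 0.72 (SE 0.22, adjusted p = 0.0196). Nkx1-2 stood at 115, 73.3, 91.3, 121 and 87.6 CPM, against 80.8, 169 and 240.2 CPM, and lost its call without Ins replicate 3 or without InvClone1 replicate 4 (adjusted p = 0.0571 and 0.0527). Of 15 presomitic and segmentation genes 1 was higher, Hes7, a segmentation clock factor, 0.80 ± 0.29 (SE, adjusted p = 0.0431), and it lost its call in 13 of 18 fits without 1 library. Tbx6, which specifies presomitic mesoderm, gave 34.2 ± 7.997 CPM (SD, n = 5) against 27.1 ± 13.1 (SD, n = 13) (adjusted p = 0.429). None of 8 Wnt response genes passed, Axin2 standing at 94.7 ± 5.05 CPM (SD, n = 5) against 91.9 ± 13.9 (SD, n = 13) (adjusted p = 0.776). Of 8 FGF response genes 3 were lower, Etv5, Spred1 and Il17rd, with log2 fold changes of -0.39, -0.26 and -0.47, and Spry4 averaged 16.5 ± 1.19 CPM (SD, n = 5) against 20.2 ± 4.50 (SD, n = 13) (adjusted p = 0.136). The Il17rd call was lost without InvClone1 replicate 4 (adjusted p = 0.0512).

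Among 15 somite and sclerotome genes 5 were higher and 0 lower, at a median of 0.72, and 7 were higher without the TruSeq libraries. With line as a term 3 were higher, within Del and Ins 4, and leaving out 1 library gave 4 to 8. In the fit with the 4 names apart, 1 was higher than in ISML_first, where 10.9% of all genes were. Against ISML_third 5 were higher (all genes 19.0%), and against the TruSeq libraries 4 (all genes 6.82%). Foxd2, a factor of somites and intermediate mesoderm, stood at 41.8, 47.3, 48.4, 46.1 and 47.2 CPM, against 14.3, 22.8 and 51.0 CPM, 0.92 ± 0.20 (SE, adjusted p = 0.00314). Of the 13, InsDel7to10 replicate 1 alone exceeded the 5. Twist1, Foxc2 and Foxc1, factors of somitic and other mesenchyme, rose by 0.85, 0.83 and 0.65, and Pax9, of sclerotome, by 0.75. Meox1, made throughout somites, gave 518, 581, 548, 574 and 566 CPM, against 435, 539.6 and 764 CPM (adjusted p = 0.995). Of 9 dermomyotome genes tested 1 was higher, Lbx1, 2.09 ± 0.72 (SE, adjusted p = 0.0375), at 0.377 to 1.495 CPM, and its call was lost in 7 of 18 fits. Lbx1 passed the filter only through the libraries where it is high, and of the 8 genes passing in the 13 others alone 0 were higher. Myf5, the first muscle determination factor, gave 0.901 ± 0.289 CPM (SD, n = 5) against 0.852 ± 0.302 (SD, n = 13) (adjusted p = 0.847).

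Neural genes gave few calls. Of 15 neural progenitor genes tested 2 were higher and 1 lower (median 0.19). Nkx6-1 and Olig2, factors of ventral progenitors that Hedgehog signalling turns on in the embryo, were the 2 higher ones. Nkx6-1 stood at 14.6, 11.03, 10.6, 8.04 and 8.94 CPM, against 0.237, 0.798 and 9.24 CPM, 2.68 ± 0.55 (SE, adjusted p = 0.0019), and passed with line as a term (adjusted p = 0.0255). Olig2 stood at 5.40, 3.44, 5.22, 2.37 and 3.39 CPM, against 0, 0.497 and 5.22 CPM, 2.31 ± 0.63 (SE, adjusted p = 0.0111). For both genes 1 or more of the 13 libraries lay within the range of the 5. Fabp7, a fatty acid binding protein of radial glia, fell by 0.97 (SE 0.33, adjusted p = 0.0363) and lost its call without any 1 of the 5 libraries. Pax6, of progenitors in the middle of the neural tube, gave 6.90, 5.12, 9.39, 6.24 and 8.10 CPM, against 1.31, 5.22 and 20.4 CPM (adjusted p = 0.777). Of 10 neuron genes tested Neurog2 was higher (1.65 ± 0.45 SE, adjusted p = 0.0106) and Stmn2 lower (-1.13), and Elavl3, made by newborn neurons, gave 1.22 ± 0.375 CPM (SD, n = 5) against 0.841 ± 0.444 (SD, n = 13) (adjusted p = 0.234). The neural crest list had 4 of 10 genes tested, 3 of them higher, among them Erbb3, a receptor of crest and glia, 1.08 ± 0.37 (SE, adjusted p = 0.0346), and Snai2, of migrating crest, 0.67 ± 0.24 (SE, adjusted p = 0.0464). Erbb3 and Snai2 lost their calls in 7 and 12 of 18 fits. Sox10, the defining crest factor, had at most 0.279 CPM in any library. In surface ectoderm 4 of 8 genes were tested, 3 of them on the 13 others alone. Krt15 was higher (2.29 ± 0.27 SE, adjusted p = 3.64e-05), but it passed the filter only through the 5 libraries, which favours a rise. Of the other 3 genes 0 were higher, and Grhl3 was lower (-0.62, adjusted p = 0.0534 without Del replicate 3). Trp63 had at most 0.307 CPM.

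Pluripotency, streak and signalling lists added few calls. Of 14 pluripotency and germ cell genes tested 1 was higher, Prdm1, a repressor shared by germ cells, endoderm and other tissues (1.11 ± 0.35 SE, adjusted p = 0.0239), and its call was lost without Ins replicate 3, InvClone1 replicate 4 or Del replicate 3. Pou5f1 gave 1.30, 6.38, 5.10, 1.05 and 0.941 CPM, against 0.0947, 3.86 and 8.63 CPM (adjusted p = 0.631), so that the 5 libraries differed among themselves. None of 6 streak genes tested passed. Of 8 BMP response genes tested Id1, Smad6 and Smad7 were higher, by 0.96, 1.01 and 0.42, and none passed with line as a term. The calls of Id1 and Smad7 were each lost in 4 of 18 fits. Of 6 retinoic acid genes tested Rarb was higher (0.47 ± 0.15 SE, adjusted p = 0.0238), its call also lost in 4 fits.

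Some immediate early genes and Lars2 also moved with the label, and ribosomal protein genes did so in Del and Ins. Of 10 immediate early and heat shock genes tested 4 were higher without overlap, Egr1, Junb, Jun and Ier2, by 1.79, 2.13, 1.04 and 1.12. Fos, of the same family, gave 1.19 ± 0.166 CPM (SD, n = 5) against 1.20 ± 0.963 (SD, n = 13) (adjusted p = 0.999). Lars2, a mitochondrial leucyl-tRNA synthetase, lies on chromosome 9 from 123366927 to 123462664 (mm10). It had the largest fall among genes that passed without overlap, averaged at least 1 CPM and were not predicted gene models. It stood at 155, 169, 124, 158 and 119 CPM, against 322, 647 and 1949.7 CPM, with -2.65 ± 0.48 (SE, adjusted p = 0.000863). Its 13 other values also differed by library name, as the plot of levels by library name shows. Rn7sk, a small nuclear RNA without a poly(A) tail, fell by 1.29. Of 85 ribosomal protein genes, a list taken after the data were seen, 39 were lower and 2 higher, with a median of -0.30. With line as a term 10 were lower and 0 higher. The median difference between labels was -0.31 in Del, -0.33 in Ins and 0.06 in InvClone1. Scores of this list ran from -0.25 to -0.03 in the 5 libraries, inside the others' range of -0.64 to 0.34. Rps27a, the largest fall among the ribosomal genes, stood at 604, 574, 564, 505 and 519.6 CPM, against 692, 909 and 1204 CPM. It fell by 0.74, with near-identical copies making its reads uncertain. Of 14 mitochondrially encoded genes, also taken later, 4 were higher and 0 lower, at a median of -0.04. Of the 13 genes that passed the filter in the other libraries alone, 3 were higher. Within Del and Ins 4 of these mitochondrial genes were higher and 6 lower. Clasrp and Ccnl2, both linked to RNA splicing, and Meg3, a nuclear noncoding RNA, rose by 1.23, 0.70 and 1.05 and were chosen after their values were seen. The share of counts in the 10 most abundant genes was 3.90% to 4.05% in the 5 libraries and 4.38% to 4.93% in the others. The part of these measures in the tissue differences was not tested.

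Among the other genes that fell most, Scg5, a secretory granule protein, and Serpinb1a, a protease inhibitor, fell by 1.20 and 1.21. Cxcr4, a chemokine receptor of endoderm, mesoderm and vessels, fell while those tissues' markers rose. It stood at 20.8, 22.7, 21.1, 20.1 and 23.0 CPM, against 25.7, 39.7 and 48.7 CPM, -0.85 ± 0.15 (SE, adjusted p = 0.000767), without overlap. Rnf144b, Zfp719, Oat, Hadhb and Rbm3 fell by 0.62 to 0.75, with a cold-induced RNA-binding protein (Rbm3) and enzymes of ornithine and fatty acid breakdown (Oat, Hadhb) among them. Ndufb4, Rps3a1 and the pseudogene Rps7-ps3 also fell, by 0.69, 0.64 and 1.13, and reads of these genes are uncertain because near-identical copies exist. Of 12 replication and mitosis genes 4 were lower and 0 higher: Ccnb1, Mcm6, Pcna and Cdk1, with log2 fold changes of -0.41, -0.36, -0.29 and -0.31. Mki67 gave 575 ± 67.2 CPM (SD, n = 5) against 423 ± 153 (SD, n = 13) (adjusted p = 0.0945).

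Whether the same programmes move together between libraries that share line and label was examined in the 13 other libraries, which the contrast above does not turn on. They hold 6 pairs of replicates of 1 line under 1 name: Del, Ins, InsDel5to10, InsDel7to10, InvClone1 (TruSeq) and InvClone2. In all 6 pairs the replicate with the higher gut endoderm score also had the higher score for endothelium, the midline pair, notochord, blood, heart muscle, lateral mesoderm, dermomyotome and Hedgehog response. The gut endoderm difference ran from 0.28 in Ins to 1.45 in InsDel5to10, and the endothelium difference from 0.16 in Ins to 1.95 in InvClone2. In Del, replicate 2 exceeded replicate 1 by 1.26 for gut endoderm, 1.21 for endothelium and 1.24 for Hedgehog response. In InsDel5to10, replicate 2 exceeded replicate 1 by 1.45, 1.45 and 1.03. The sign was that of gut endoderm in 5 of the 6 pairs for floor plate, motile cilia, intermediate mesoderm and neural crest. Streak, Wnt response and retinoic acid response also shared it in 5. Neural progenitors had the same sign as gut endoderm in 2 of the 6 pairs, tailbud in 3, presomitic mesoderm in 4, FGF response in 1 and ribosomal protein genes in 3. Somite and sclerotome and BMP response, each with higher genes above, shared the sign in 4 pairs, and immediate early genes in 3. Pluripotency and hypoxia lists shared it in 4, neurons, surface ectoderm and mitochondrial genes in 3, and replication genes in 2. Dermomyotome, alike in all 6 pairs, had a median log2 fold change of -0.03 in the comparison of labels. This reading of pairs was added after the data were seen and is a description.

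**Figure D4:**
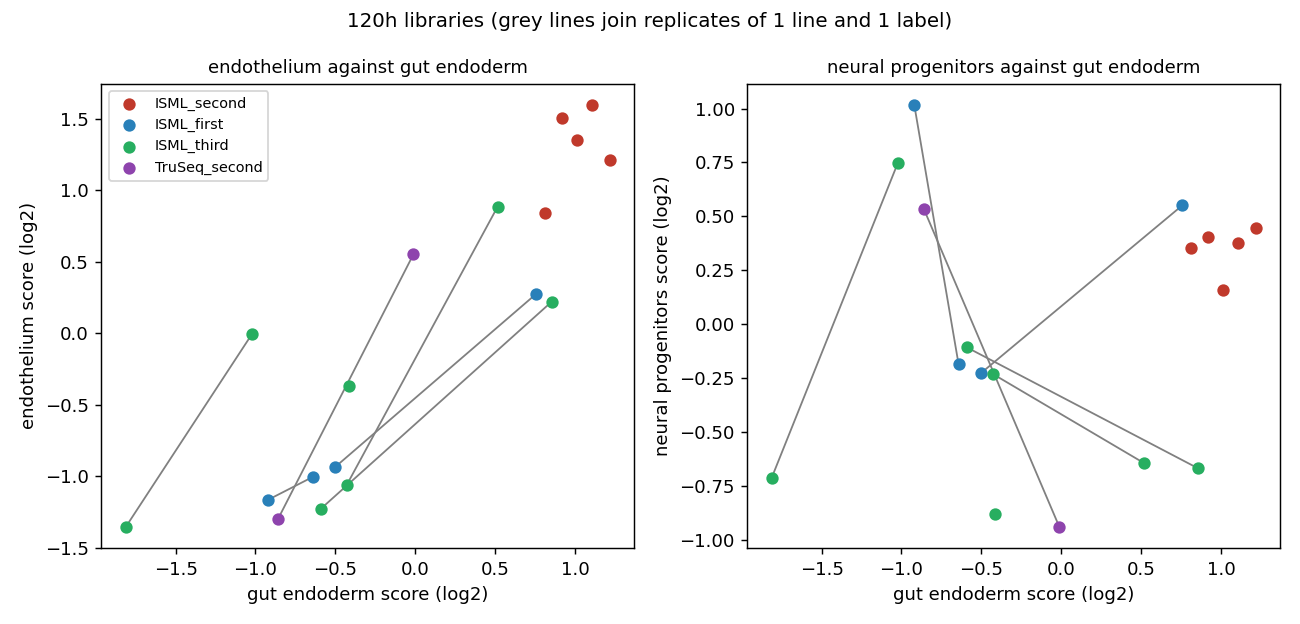
Scores of endothelium (left) and neural progenitors (right) against gut endoderm, 1 point per 120h library, coloured by library name; grey lines join the 2 replicates of 1 line under 1 name. All 6 lines rise from lower left to upper right for endothelium, and 2 of 6 do for neural progenitors, where Ins replicate 2 is highest at 1.02.

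Single indicator genes were compared over the same 13 libraries. Over 91 pairs of 14 indicator genes, 3 passed (two-sided permutation test with 100000 resamples, adjusted over the 91 pairs) and 24 had an unadjusted p under 0.05. The test shuffled the 13 libraries freely, so its p-values take no account of a shared line or library name. Cdh5 and Tal1 gave r = 0.90 and rho = 0.91 (both p = 2e-05, adjusted p = 0.00182), and r = 0.88 without the 2 libraries farthest from the median of Cdh5. Epcam and Tal1 gave r = 0.87 (p = 0.00017, adjusted p = 0.00774), rho = 0.82 (adjusted p = 0.0464) and r = 0.79 over 11 libraries. Tal1 and Hand2 gave r = 0.78 (p = 0.00136, adjusted p = 0.0413), rho = 0.71 (adjusted p = 0.0934) and r = 0.64 over 11 libraries, with Hand2 near the limit of detection. Epcam and Cdh5 gave r = 0.66 and missed the threshold (p = 0.0144, adjusted p = 0.122). Within the 7 ISML_third libraries the 3 pairs had r of 0.88, 0.90 and 0.82, and 0 of 91 pairs passed there after adjustment (exact permutation test, 13 with an unadjusted p under 0.05).

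The 1000 most variable genes were also described without any list. The first component held 51.1% of their variance and the second 20.0%. The ISML_second libraries lay between 19.6 and 24.6 on the first component, and the 13 others between -34.5 and 7.16, with Del replicate 2 the highest of them. On the second component the 5 libraries (3.21 to 8.77) lay inside the range of the others (-21.2 to 20.6). All 20 endothelial and all 13 gut endoderm genes among the 1000 were positive on both components. All 12 neural progenitor genes were positive on the first and 10 of them negative on the second, as were all 12 ribosomal protein genes among the 1000. Of all 1000 genes, 894 were positive on the first component and 453 on the second.

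Whether the label's difference depended on the line was asked in the 10 libraries of Del, Ins and InvClone1. Of 15539 genes 0 passed the interaction test (edgeR, 246 at an unadjusted p under 0.05), with 4 residual degrees of freedom, and DESeq2 called 18. Without InvClone1 replicate 1 edgeR called 21. This does not show that the lines responded alike. For gut endoderm the median difference between labels was 1.179 in Del, 2.04 in Ins and 1.74 in InvClone1, and for neural progenitors it was 0.18, -0.68 and 0.79.

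The ISML_second name also covers 1 library of each of the 5 lines at 144h, which places the 120h levels against the next day. On 1 scale for both stages, gut endoderm scored 0.81 to 1.22 at 120h and 1.01 to 1.35 at 144h, and endothelium 0.84 to 1.60 and 0.99 to 1.66. The 13 other libraries of 120h ran from -1.82 to 0.86 and from -1.36 to 0.89 for these lists. Hedgehog response scored 0.80 to 1.26 at 120h and 1.19 to 1.40 at 144h. Scores of 11 of the 28 lists did not overlap between the 2 stages, 4 of them higher at 144h and 7 lower. Those higher were neural progenitors (0.16 to 0.45, then 1.98 to 2.76), neurons (0.02 to 0.36, then 1.52 to 2.46), the midline pair (1.21 to 1.51, then 1.77 to 2.14) and floor plate (0.32 to 0.55, then 0.74 to 1.43). Among those lower were tailbud (-0.06 to 0.16, then -1.77 to -0.37), presomitic mesoderm (0.02 to 0.33, then -1.61 to -0.80) and somite (0.31 to 0.63, then -0.24 to 0.01). The others lower were intermediate mesoderm, dermomyotome, Wnt response and FGF response. Heart muscle scored 0.25 to 3.19 at 144h, with InvClone1 at 3.19, Ins at 2.37 and the other 3 at or below 0.63. The InvClone1 library of 144h stood apart from the other 4, with 0.0864% of counts from mitochondrially encoded genes against 0.645% to 0.972%, and 5.56% in the 10 most abundant genes against 3.78% to 3.84%. Without it the heart muscle score ran from 0.25 to 2.37, and the part of these measures in the score was not tested. In InvClone1 under ISML_third, 1 library a stage, endothelium scored -1.38 at 96h, -0.37 at 120h, -0.08 at 144h and 0.20 at 168h, below each ISML_second library of 120h or 144h. Stage was not tested here, and these scores are a description.

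**Figure D5:**
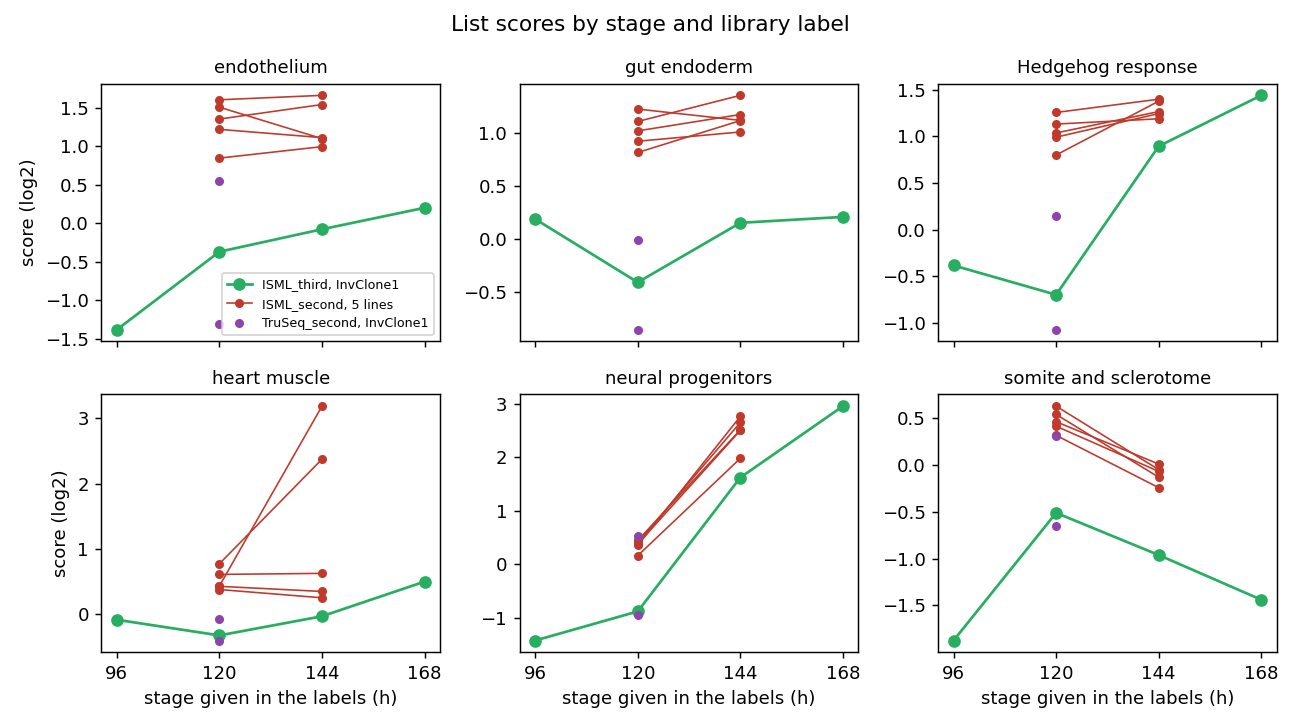
Scores of 6 lists by stage in hours after aggregation, for the 5 lines under ISML_second (red, 120h and 144h), InvClone1 under ISML_third (green, 96h to 168h) and InvClone1 under TruSeq_second (purple, 120h). Endothelium and gut endoderm scores of ISML_second are above those of the green series at every stage, and neural progenitor scores rise between 120h and 144h under both names.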

How the data were processed

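Polyadenylated RNA of whole gastruloids was sequenced in 26 libraries. The deposited count table holds whole-number reads per gene, and the deposited FPKM table (fragments scaled by gene length and depth) gave gene names and positions only, with starts written here counting from 1. The submitters' processing notes name the build mm10 and the tools STAR 2.7.10a, cutadapt 1.18 and Cufflinks 2.2.1. The sources used here give no strand setting, annotation release or counting version. Genes that overlap, antisense pairs and near-identical copies are therefore uncertain. 8 value columns of the tables matched no sample and were not used.

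From the counts, CPM (edgeR's depth-scaled counts, on TMM-scaled library totals) were computed, and edgeR 4.0.16 (R 4.3.3) was run with TMM scaling, filterByExpr at a minimum count of 10 and quasi-likelihood tests on the 18 libraries of 120h. P-values were adjusted over all genes (Benjamini-Hochberg, threshold 0.05). Alternatives were a line term, the replicate number as a block, single library names, DESeq2 1.42.0, limma 3.58.1 voom, other filters and leaving out each library. In simulated counts for this comparison (15396 genes) 82% of genes changed by log2 1 and 98% changed by log2 2 were recovered, with 4.76% false calls. Genes were simulated independently, without library names and without tissues that move together, so these shares need not hold for the real libraries. A count of 0 allows up to 3 counts, 0.0795 to 0.160 CPM, which covers counting error only.

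The text names the indicator gene of each list, up to 4 called members per list by adjusted p, and the 15 largest rises and 15 largest falls among genes whose groups do not overlap and that average 1 CPM or more. Predicted gene models were left out of these rises and falls. Other genes were named after their values were seen. Some genes that the rule names are not reported here. The libraries and the 28 lists were chosen with earlier results of these data known. The ribosomal protein and mitochondrial lists, the replicate pairs and the components were added after seeing the data.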

Additional observations from a re-analysis of the deposited data

Results flagged for a closer look

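In 90 groups of 4 to 10 libraries, 4 held 1 library whose gap to the rest passed Dixon's 95% critical value, which chance passes in about 1 in 20 groups. The groups share libraries and are not independent. Del replicate 2 stood apart from the other 3 ISML_first libraries in 3 scores. Its midline score was 0.70, against -0.89 to -0.66. Its endothelium score was 0.28, against -1.17 to -0.94, and its pluripotency score 0.43, against -0.34 to -0.24. Ins replicate 1 had 1.51% of counts from mitochondrially encoded genes, against 1.23% to 1.26% in the other 3.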

How the results depend on the processing

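Of 2276 higher and 1960 lower genes, a term for line left 732 and 292, and Del and Ins alone gave 1263 and 1158. Against TruSeq_second alone 1050 were higher. Leaving out 1 library gave 1608 to 2542 higher and 1365 to 2401 lower. With the replicate number as a block 568 were higher and 335 lower. The numbers name replicates and do not pair libraries across lines. Interaction calls, 0 in edgeR, were 18 with DESeq2, 95 with no filter and 0 to 21 without 1 library. Indicator pairs passing, 3, ranged from 2 to 5 without 1 library.

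Of 100 named genes that passed, none reversed, and 81 passed in all 18 fits without 1 library. Calls were lost for 47 with line, 50 with the block, 57 against TruSeq_second, 43 in Del and Ins, 20 with no filter, 1 with DESeq2 and 2 with voom. Reversals were among genes that had not passed. Tnnt2 gave -0.31 against TruSeq_second and -0.14 to 0.73 without 1 library. Meox1 gave 0.028 with line, 0.044 against ISML_first, 0.070 against TruSeq_second, 0.010 in Del and Ins, 0.018 with voom, 0.0044 at a minimum count of 50, and -0.047 to 0.044 without 1 library. Myf5 gave -0.046, -0.24 and -0.40 with line, against ISML_first and in Del and Ins, and -0.084 to 0.18 without 1 library. Pax6 gave 0.55 with the block, 0.16 against ISML_third and 0.31 with voom. Pou5f1 gave 0.083 with line and 0.32 in Del and Ins. Axin2 gave -0.016 with the block, -0.058 against TruSeq_second and -0.020 in Del and Ins. Slc2a1 gave 0.011 with the block and 0.038 against ISML_third. Fos gave -0.14 against ISML_first, -0.20 in Del and Ins, -0.021 without TruSeq, -0.029 with DESeq2, -0.025 with its size factors, and -0.10 to 0.26 without 1 library. The cause was not tested.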
